A study of Mus musculus with 16 samples.

Results

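The genes described here are 36 genes of the amino acid response, the programme driven by the transcription factor ATF4, taken as a list of names: regulators, stress effectors, enzymes of amino acid and one-carbon synthesis, amino acid transporters and aminoacyl-tRNA synthetases. Each gene was represented by the array feature that names that gene and no other, and by the feature with the highest mean where there were several. Of the 36 genes, 33 had such a feature, out of 22180 genes measured in that way, and all 33 were among the 15526 genes tested. The glycine transporter gene Slc6a9 and the synthetase genes Aars and Mars were not analysed here. Bone marrow-derived macrophages of male C57BL/6 mice aged 5 weeks were grown with M-CSF, the macrophage growth factor, in a medium with added L-glutamine, and their RNA was measured on 16 arrays. Addition of RANKL, the cytokine that turns macrophages into bone-resorbing osteoclasts, was combined with DW, the control treatment as labelled, or with 1 mM dimethyl α-ketoglutarate (here αKG), the methyl ester of the metabolite that is formed from glutamate. The 8 groups of 2 arrays comprise a start group at 0 h, which had M-CSF and DW but no RANKL. With RANKL, the times 3 and 6 h were labelled early, 12 and 24 h intermediate, and 48 and 72 h late, and each of these phases exists with DW and with αKG. A fast group at 0.5 and 1 h exists with αKG alone. Every group received M-CSF, and each array with RANKL is the only one of its condition and time.

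ATF4 is made mainly by translation: kinases that sense lack of amino acids, unfolded protein, heme deficiency or double-stranded RNA phosphorylate the initiation factor eIF2α, which lowers protein synthesis in general and favours translation of the Atf4 message. ATF4 then binds, with C/EBP family partners, to composite elements in genes that import amino acids, make asparagine, serine and glycine, and charge tRNAs. Atf3, Ddit3, Trib3 and Chac1 are induced when the signal is strong or long, and the osteoclast itself is known to use ATF4 and serine synthesis during differentiation. An array reports the messages, so ATF4 protein and eIF2α phosphorylation were not measured.

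All values are log2 expression as deposited, and differences are log2 differences with standard errors from limma. A gene is said to have risen or fallen where its Benjamini-Hochberg adjusted p over all 15526 genes was below 0.05. Between the 2 arrays at 0 h, the differences had an SD of 0.144 over the 33 genes and of 0.196 over all genes tested, and no listed gene differed by more than 0.438. The labels do not state separate cultures or animals for the arrays, and p-values reflect only how these arrays vary among themselves. Comparisons with 0 h share the same 0 h arrays, the effects of RANKL and of culture time cannot be told apart in them, and comparisons of αKG with DW share the DW arrays with those of DW over time. The averaged level of 6 macrophage markers lay between 10.03 and 11.04 in all arrays, and that of 10 osteoclast markers between 5.54 and 11.08. Averages of the B cell, T cell, erythroid and stromal lists lay between 3.93 and 5.94. That of 8 neutrophil markers was 7.91 and 7.86 at 0 h. At 48 and 72 h it was 5.42 and 5.06 with DW, and 5.84 and 5.14 with αKG. In RNA of whole cultures, fewer cells of a type and less RNA per cell cannot be told apart.

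The C/EBP-ATF composite element, searched as TGATGNAA on both strands, was found in the promoter windows of 11 of the 29 listed genes with a window (37.9%), against 4.51% of all genes in the RefSeq promoter table (GRCm38.p6) and 2.99% of the genes tested here. A window runs from 250 bases before to 50 bases after the first transcribed base. Matches were present in Atf3, Nupr1, Trib3, Chac1, Vldlr, Asns, Slc1a4, Gars, Yars, Tars and Aars. The upstream stretches below are shown because these 6 genes stand for a different role or time course each in the results that follow; the match is in capitals, the other bases in lower case, and each reads 5′ to 3′ on the strand of its gene.
Atf3, chr1:191183396-191183483, - strand: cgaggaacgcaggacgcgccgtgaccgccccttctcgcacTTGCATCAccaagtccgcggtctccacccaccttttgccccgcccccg
Nupr1, chr7:126625533-126625620, - strand: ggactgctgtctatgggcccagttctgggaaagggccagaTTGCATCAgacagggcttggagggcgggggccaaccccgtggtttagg
Chac1, chr2:119351009-119351096, + strand: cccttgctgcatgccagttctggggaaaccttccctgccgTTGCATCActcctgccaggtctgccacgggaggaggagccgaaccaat
Asns, chr6:7693210-7693272, - strand: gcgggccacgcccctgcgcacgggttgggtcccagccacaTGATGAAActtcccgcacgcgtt
Gars, chr6:55037931-55038000, + strand: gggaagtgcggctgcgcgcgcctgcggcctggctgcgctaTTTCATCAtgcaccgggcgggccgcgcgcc
Tars, chr15:11399659-11399713, - strand: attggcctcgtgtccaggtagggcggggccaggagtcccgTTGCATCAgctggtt
The match in Asns, the asparagine synthetase gene, was TGATGAAA on the strand of the gene, starting 23 bases before the first transcribed base. In Atf3, Nupr1, Chac1 and Tars the capitals are one and the same 8 letters, TTGCATCA, a match on the opposite strand. A match describes these letters only, and its absence from a window says nothing about binding by ATF4. The 10 measured genes with a match and the 17 measured genes whose windows had none had medians of αKG minus DW of 0.21 and 0.19 at 3 h, 0.21 and 0.23 at 6 h, and 0.35 and 0.22 at 12 h. At 24 h the medians were -0.06 and 0.01, at 48 h -0.33 and -0.25, and at 72 h 0.38 and 0.23. No test was made of these medians.

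Most of the amino acid response genes were higher with αKG than with DW through the first 12 h, lower at 48 h, and again mostly higher at 72 h. With 1 array per arm and time, 29 of 33 genes (87.9%) were higher with αKG at 3 h, and 29 were at 6 h and at 12 h, where 46.4%, 49.2% and 52.0% of all genes tested were. The median differences at these times were 0.19, 0.23 and 0.23. At 24 h, 14 of 33 genes were higher, with a median of -0.05. At 48 h only 5 of 33 genes (15.2%) were higher, namely Atf3, Atf5, Cebpb, Nupr1 and Slc3a2, against 48.9% of all genes, and the median was -0.33. At 72 h the count was 23 of 33 (69.7%) against 53.1% of all genes, with a median of 0.23. These counts describe single pairs of arrays and carry no test. Large differences were Chac1 at -1.42 and Atf3 at 1.02 at 48 h, and Psat1 at 1.11 and Slc1a5 at -1.21 at 72 h. These picked values exceeded the largest difference of a listed gene between the 0 h arrays. The 0 h arrays share 1 time and treatment, so that difference does not measure the spread of the other pairs.

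**Figure D1:**
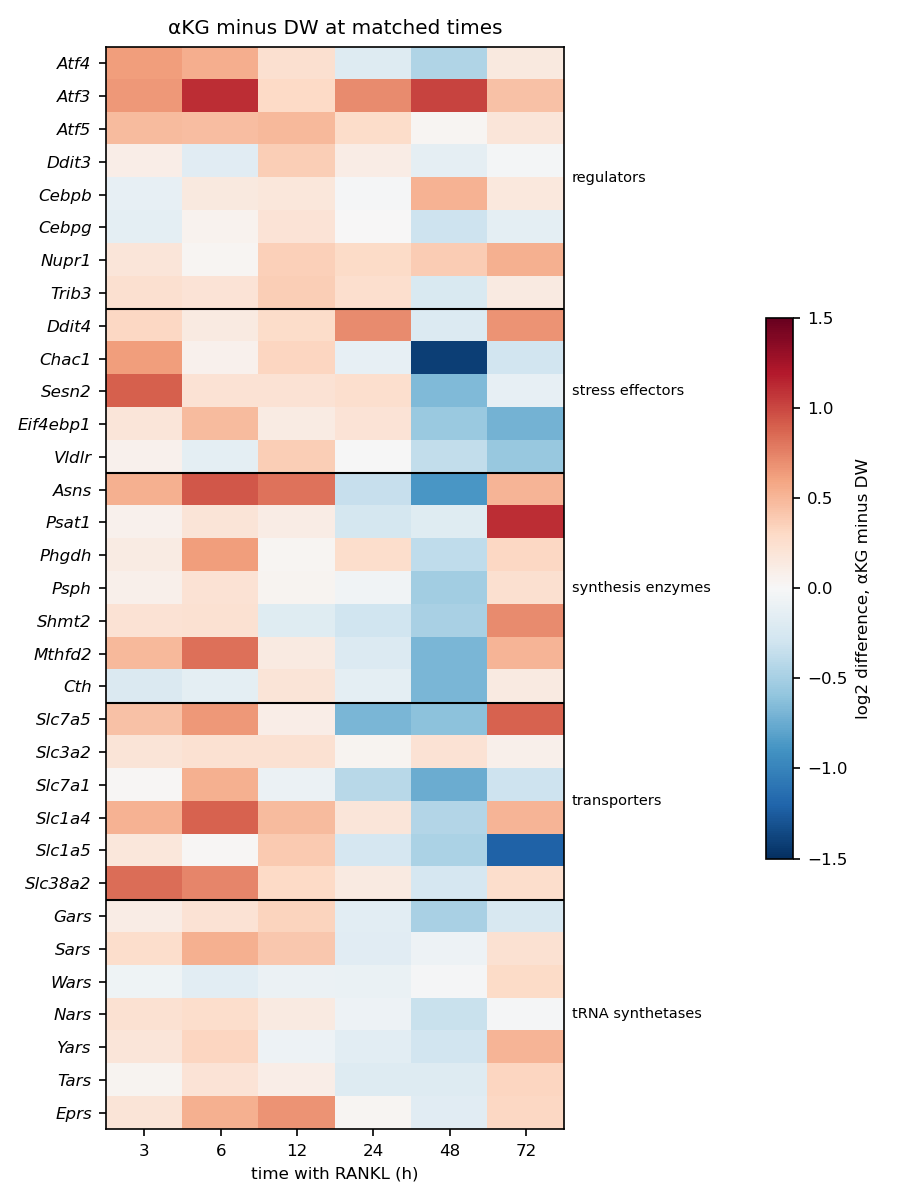
Colour gives the log2 difference of the αKG array minus the DW array (red higher with αKG, blue lower) for the 33 measured genes (lines, by class) at the 6 matched times in h (columns). The first 3 columns are mostly red, with 29 of 33 genes above 0 in each, and the 48 h column is mostly blue, with 5 of 33 above 0.

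Only a few of these differences passed the test. Averaged over the 6 times, 1 of 33 genes rose with αKG (Atf3), where 0.264% of all genes rose, and 0 fell, where 0.135% of all genes did; 8 genes (24.2%) had an unadjusted p under 0.05, as did 2061 of all 15526 genes. In the early phase limma called 0 of 33 genes (0.161% of all genes were called), and 12 genes (36.4%, against 8.53% of all genes) had an unadjusted p under 0.05; 28 of the 33 effects were above 0 with a median of 0.25, against -0.01 over all genes. The intermediate phase gave 0 calls of 33 (0.0966% of all genes), with 5 genes (15.2%, against 9.35%) at an unadjusted p under 0.05. In the late phase, 1 gene rose (Nupr1; 2.09% of all genes rose) and 2 fell (Eif4ebp1 and Slc1a5; 2.18% of all genes fell), with 9 genes (27.3%, against 19.2%) at an unadjusted p under 0.05. The late effect minus the early effect was called for 1 gene, Eif4ebp1, which was lower (0.258% of all genes), and for 0 genes in the other direction (0.348% of all genes); it was below 0 for 28 of 33 genes, with a median of -0.32 against 0.02 over all genes. The early count changed when either late pair was left out, while the early effects stayed the same. In both of those fits they were 0.79 for Slc38a2, 0.88 for Atf3, 0.59 for Atf4 and 0.655 for Mthfd2. The cause was not tested.

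**Figure D2:**
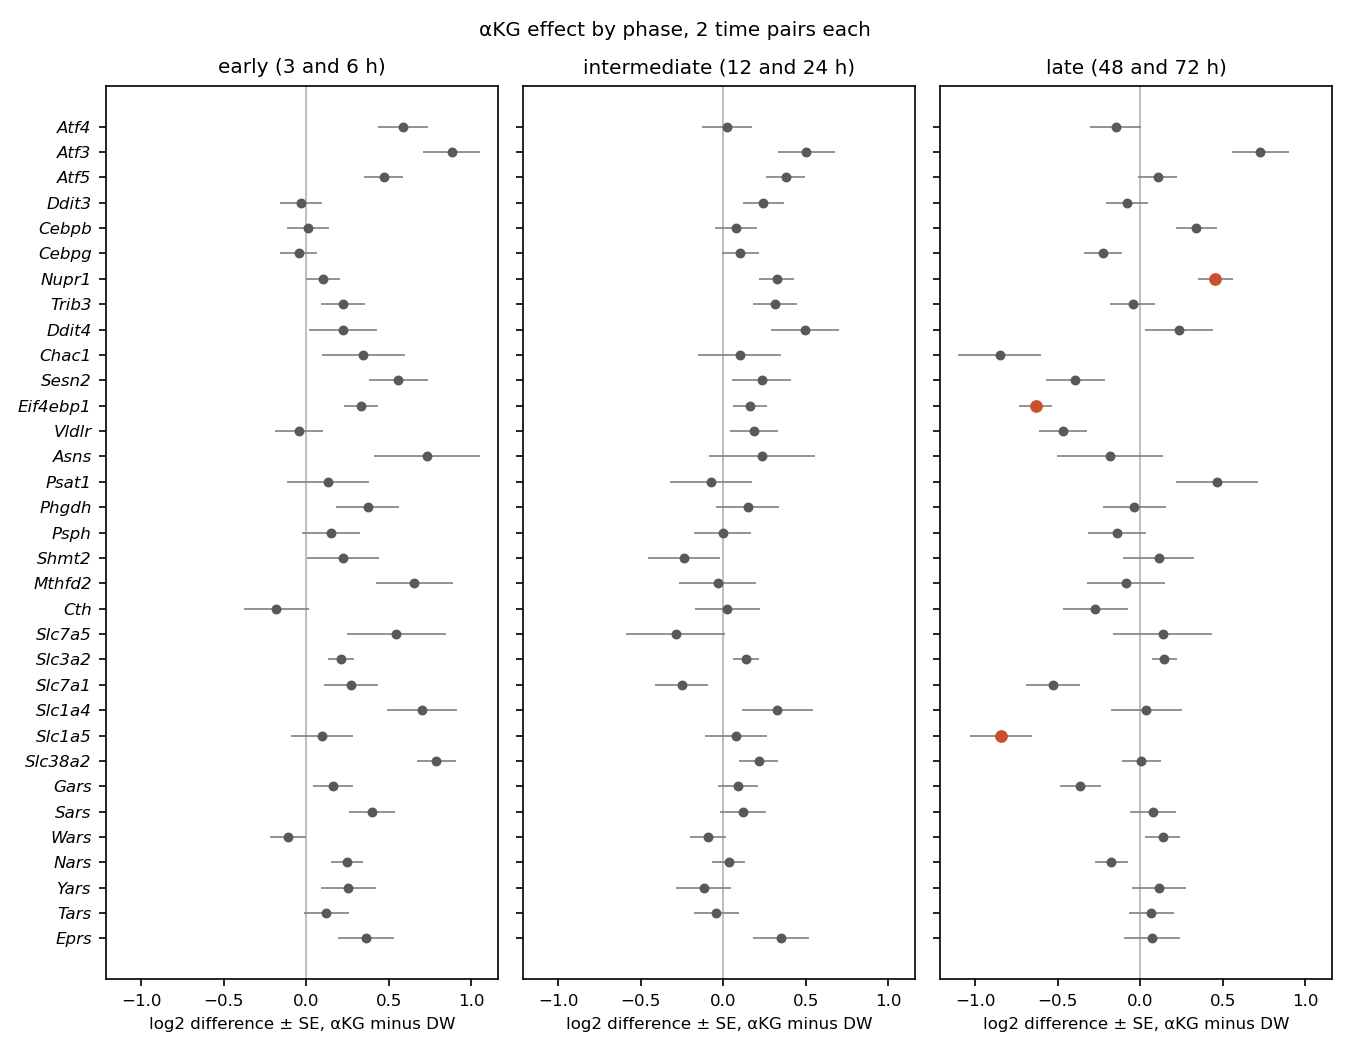
Each point is the log2 effect of αKG over DW for 1 of the 33 genes in 1 phase, with its standard error as a bar; red points passed an adjusted p of 0.05. Of the early effects 28 of 33 lie above 0 and none is red, and in the late phase Nupr1 (0.45) lies to the right, Eif4ebp1 (-0.63) and Slc1a5 (-0.84) to the left.

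Among the regulators, Atf3, Atf5 and Nupr1 were higher with αKG at every matched time, and Atf4 at 4 of 6. Atf4, the head of the programme, was at 8.79 and 8.80 in the 0 h arrays and at 8.52 and 8.75 with αKG at 0.5 and 1 h. With DW, Atf4 was at 8.94, 8.65, 8.18, 8.59, 9.19 and 7.90 from 3 to 72 h. With αKG, Atf4 was at 9.57, 9.19, 8.42, 8.39, 8.74 and 8.05 at the same times. The 3 h αKG array held the highest value of all 16 and the 72 h DW array the lowest, and αKG was above DW up to 12 h and at 72 h and below it at 24 and 48 h. The early effect was 0.59 ± 0.15 (adjusted p = 0.286, limma) and the late effect -0.15 ± 0.15 (adjusted p = 0.667, limma), and the difference between them was -0.74 ± 0.22 (adjusted p = 0.163, limma). Without the 48 h or the 72 h pair, the early effect of Atf4 stayed at 0.59, with a standard error of 0.11 in place of 0.15.

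Atf3, an early stress gene whose product represses transcription, was at 8.56 and 8.45 at 0 h and 8.58 and 8.41 with αKG at 0.5 and 1 h. With DW, Atf3 was at 8.38, 7.94, 7.69, 7.30, 6.60 and 7.56 from 3 to 72 h, all of them below both 0 h arrays. With αKG, Atf3 was at 9.03, 9.05, 7.98, 8.01, 7.61 and 8.001, higher than DW at 6 of 6 times, by 0.65, 1.11, 0.29, 0.71, 1.02 and 0.44. Over the 6 times it was 0.70 ± 0.11 higher (adjusted p = 0.0369, limma), and under 14 alternatives the effect stayed between 0.62 and 0.79 while its adjusted p ranged from 0.0161 to 0.285. The call was lost when any 1 of the 3, 6, 12, 24 or 48 h pairs was left out. Moderation without trend and a fit with no time block lost it too. In DW late cultures Atf3 fell by 1.43 ± 0.28 against 0 h (adjusted p = 0.0119, limma). That call was lost when either 0 h array was left out or when only the 2 groups compared were fitted. In αKG late cultures the difference from 0 h was -0.70 ± 0.28 (adjusted p = 0.332, limma).

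Nupr1, which encodes a small stress-induced chromatin protein, was at 6.97 and 6.95 at 0 h and at 7.35 and 8.30 with αKG at 0.5 and 1 h. With DW, Nupr1 was at 8.11, 7.79, 8.05, 7.51, 7.40 and 7.70 from 3 to 72 h. With αKG, Nupr1 was at 8.29, 7.81, 8.41, 7.79, 7.78 and 8.23. All 14 arrays with RANKL were above both 0 h arrays, and αKG was above DW at 6 of 6 times. The late effect of αKG was 0.45 ± 0.11 (adjusted p = 0.0474, limma), and over 14 alternatives it lay between 0.38 and 0.53 with an adjusted p from 0.0295 to 0.828. It did not pass without the 72 h pair (0.38), or without the 3, 6, 12 or 24 h pair. Nor did it pass after centring on array medians, with no filter on dim genes, under moderation without trend, or with no time block.

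Ddit3, which encodes the pro-apoptotic factor CHOP, and Trib3, a pseudokinase gene induced by ATF4 and CHOP, were called in no comparison of αKG with DW. Ddit3 was at 7.05 and 6.95 at 0 h, and at 6.97 and 6.89 with αKG at 0.5 and 1 h. With DW, Ddit3 was at 7.25, 7.11, 6.97, 6.59, 7.08 and 7.01 from 3 to 72 h. With αKG, Ddit3 was at 7.35, 6.94, 7.35, 6.70, 6.95 and 6.99. The arms overlapped throughout, and αKG was the higher at 3 of 6 times. Trib3 was at 5.46 and 5.40 at 0 h, and at 5.52 and 5.62 with αKG at 0.5 and 1 h. With DW, Trib3 was at 5.57, 5.93, 5.47, 5.43, 5.88 and 5.26 from 3 to 72 h. With αKG, Trib3 was at 5.81, 6.13, 5.83, 5.69, 5.65 and 5.40, above DW at every matched time except 48 h. The effect over the 6 times was 0.04 ± 0.08 for Ddit3 and 0.16 ± 0.09 for Trib3 (adjusted p = 0.878 and 0.451, limma). Of the other regulators, Atf5 was higher with αKG at 6 of 6 times (0.32 ± 0.08; adjusted p = 0.139, limma), Cebpb at 4 and Cebpg, whose product pairs with ATF4, at 3.

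The stress effectors had the lowest median late effect of the 5 classes (-0.47), and Eif4ebp1 was the called gene among them. Eif4ebp1 encodes a repressor of cap-dependent translation that ATF4 induces. It was at 8.54 and 8.69 at 0 h and at 8.50 and 8.58 with αKG at 0.5 and 1 h. With DW, Eif4ebp1 was at 8.66, 8.60, 8.80, 8.65, 9.69 and 9.93 from 3 to 72 h. With αKG, Eif4ebp1 was at 8.84, 9.08, 8.92, 8.85, 9.13 and 9.22. The DW arrays at 48 and 72 h were the 2 highest of all 16, and αKG was above DW at each time up to 24 h and below it at 48 and 72 h. It rose by 1.20 ± 0.14 from 0 h to DW late (adjusted p = 0.000594, limma), and the difference from 0 h to αKG late was 0.56 ± 0.14 (adjusted p = 0.0786, limma). Late, αKG lowered it by 0.63 ± 0.10 relative to DW (adjusted p = 0.0123, limma), and the late effect differed from the early one by -0.97 ± 0.14 (adjusted p = 0.034, limma). Without the 72 h pair the late effect was -0.56 and no longer passed, nor did it with no time block. The difference between phases was lost when any 1 of the 3, 6, 12 or 24 h pairs was left out, without trend and with no time block. Its values over 14 alternatives lay between -1.11 and -0.82. All 10 osteoclast markers also fell with αKG late, with a median of -1.72, and their part in the late differences of the listed genes was not tested.

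Chac1, which encodes an enzyme that breaks down glutathione, was at 5.81 and 5.48 at 0 h and at 5.43 and 5.58 with αKG at 0.5 and 1 h. With DW, Chac1 was at 5.59, 5.88, 5.19, 5.55, 7.19 and 5.79 from 3 to 72 h. With αKG, Chac1 was at 6.22, 5.94, 5.52, 5.43, 5.77 and 5.50. The 48 h DW array was the only one above 7, and the highest value with αKG was that at 3 h. The late effect was -0.85 ± 0.25 (adjusted p = 0.102, limma). With the 48 h pair alone as the late phase it was -1.42, a difference between single arrays. Sesn2, whose product restrains mTORC1 when leucine is low, was 0.90 higher with αKG at 3 h and 0.66 lower at 48 h, and its late effect minus its early effect was -0.95 ± 0.26 (adjusted p = 0.134, limma). Ddit4, another inhibitor of mTORC1, was higher with αKG at 5 of 6 times. Vldlr, a lipoprotein receptor gene with a match in its promoter window, was below DW at 48 and 72 h by 0.37 and 0.57.

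**Figure D3:**
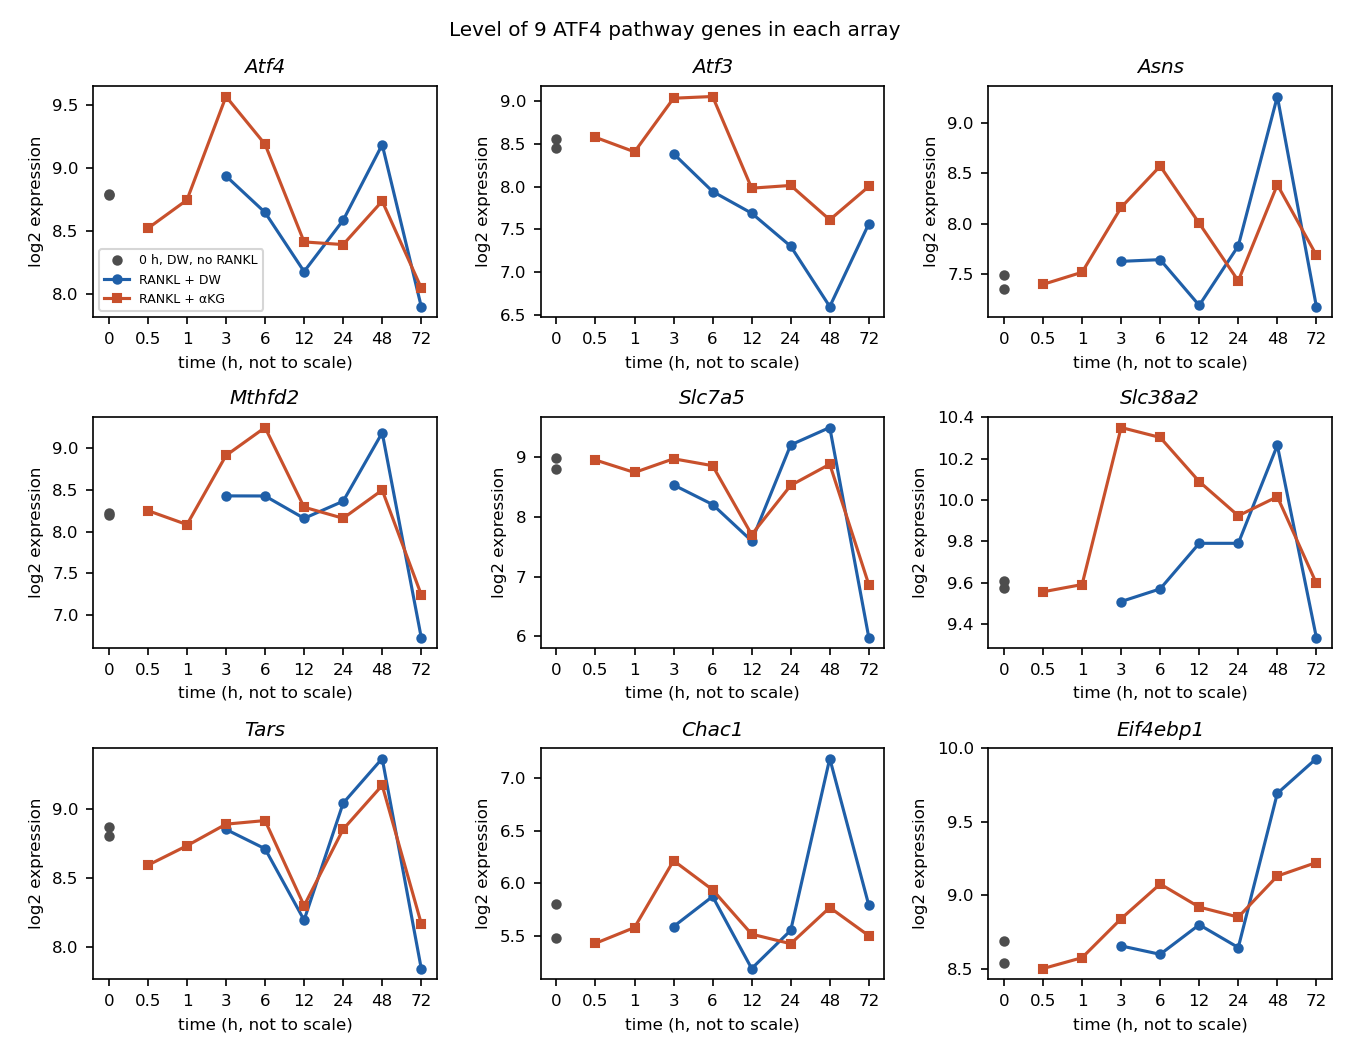
Log2 expression (vertical axis) of 9 genes in each of the 16 arrays against time in h (categories, not to scale): grey, the 2 arrays at 0 h without RANKL; blue circles, RANKL with DW; red squares, RANKL with αKG. Asns, Chac1 and Mthfd2 have their highest DW value at 48 h, Slc38a2 its highest αKG value at 3 h, and Eif4ebp1 its 2 highest values in DW at 48 and 72 h.

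The synthesis enzymes stood highest of the 5 classes at 48 h with DW, by a median of 0.84 above 0 h, against 0.28 with αKG. Asns, which makes asparagine from aspartate and glutamine, was at 7.36 and 7.49 at 0 h and at 7.40 and 7.52 with αKG at 0.5 and 1 h. With DW, Asns was at 7.63, 7.64, 7.19, 7.78, 9.26 and 7.18 from 3 to 72 h. With αKG, Asns was at 8.16, 8.57, 8.004, 7.43, 8.39 and 7.69. The DW value at 48 h was the highest of all arrays, and the αKG values at 3, 6 and 12 h were above every DW value before 48 h. The early effect was 0.73 ± 0.32 and the late effect -0.18 ± 0.32 (adjusted p = 0.584 and 0.821, limma). Mthfd2, the mitochondrial one-carbon enzyme gene, was chosen after its values were seen: it was at 8.23 and 8.21 at 0 h. With DW, Mthfd2 was at 8.43, 8.43, 8.16, 8.37, 9.19 and 6.73 from 3 to 72 h. With αKG, Mthfd2 was at 8.92, 9.25, 8.29, 8.16, 8.50 and 7.24. It was highest at 6 h with αKG and at 48 h with DW, and both arms were lowest at 72 h.

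All 7 synthesis enzymes, which also include the serine pathway genes Phgdh, Psat1 and Psph, the glycine-forming Shmt2 and the cysteine-forming Cth, were highest at 48 h in the DW series. At that time all 7 were lower with αKG, by a median of 0.52 on the log2 scale, and at 72 h all 7 were higher with αKG, with differences from 0.14 for Cth to 1.11 for Psat1. Late averages over 48 and 72 h therefore held opposite differences, and limma called 0 of the 7 genes there, with 0 at an unadjusted p under 0.05. Shmt2 is an example: its late effect of 0.11 ± 0.22 was made of a difference of -0.49 at 48 h and one of 0.71 at 72 h, each between single arrays. The 9 cycling cell markers were all higher with αKG at 72 h, by 1.19 to 1.84, and their differences at 48 h lay between -0.10 and 0.18. All 9 were lower with αKG at 12 h (-0.98 to -0.30) and at 24 h (-0.90 to -0.35). The part of these markers in the values of the synthesis enzymes was not tested.

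The transporters had the widest median range over the 6 times with αKG (1.38) and, with DW (1.93), came after the synthesis enzymes (2.08). Slc7a5, the light chain of the large neutral amino acid exchanger, was at 8.999 and 8.80 at 0 h and at 8.96 and 8.75 with αKG at 0.5 and 1 h. With DW, Slc7a5 was at 8.54, 8.21, 7.60, 9.21, 9.50 and 5.98 from 3 to 72 h. With αKG, Slc7a5 was at 8.98, 8.86, 7.70, 8.53, 8.89 and 6.86. Both 72 h arrays were the lowest of their arm, and the step from 48 to 72 h was -3.53 with DW and -2.02 with αKG. The early effect of αKG was 0.55 ± 0.30 and the late effect 0.14 ± 0.30 (adjusted p = 0.697 and 0.86, limma). At 72 h the αKG array was 0.89 higher than the DW array. Its partner Slc3a2, the heavy chain, was higher with αKG at 6 of 6 times, by no more than 0.23, with an effect of 0.16 ± 0.05 (adjusted p = 0.172, limma).

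Slc1a5, the glutamine importer, kept a high level to the end of the DW series and not of the αKG series. It was at 8.42 and 8.54 at 0 h and at 8.34 and 8.51 with αKG at 0.5 and 1 h. With DW, Slc1a5 was at 8.18, 8.11, 7.67, 9.56, 9.84 and 9.85 from 3 to 72 h. With αKG, Slc1a5 was at 8.35, 8.14, 8.07, 9.32, 9.36 and 8.63. Every array from 24 h on was above both 0 h arrays, and both late αKG values lay below both late DW values. The late effect of αKG was -0.84 ± 0.19 (adjusted p = 0.0405, limma); the single pairs gave -0.48 at 48 h and -1.21 at 72 h. The late call was lost without the 72 h pair (-0.48) and without the 3, 6, 12 or 24 h pair. Moderation without trend and a fit with no time block lost it too.

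Slc38a2, which encodes a sodium-coupled transporter of small neutral amino acids and is a standard reporter of amino acid lack, had the smallest early p among the listed genes and was named after its values were seen. It was at 9.61 and 9.58 at 0 h and at 9.56 and 9.59 with αKG at 0.5 and 1 h. With DW, Slc38a2 was at 9.51, 9.57, 9.79, 9.79, 10.26 and 9.34 from 3 to 72 h. With αKG, Slc38a2 was at 10.35, 10.30, 10.09, 9.92, 10.02 and 9.60. The αKG values at 3 and 6 h were the 2 highest of all arrays, while the DW values at those times were -0.08 and -0.02 from the 0 h mean. The early effect was 0.79 ± 0.12 (adjusted p = 0.0547, limma), and its adjusted p was 0.048 with robust moderation in limma. With other filters or scalings, the mean of a gene's features, moderation without trend or no time block, 0 listed genes were called early. The late effect minus the early effect was -0.78 ± 0.17 (adjusted p = 0.0752, limma). Slc1a4, a carrier of alanine, serine and cysteine, was 0.53 and 0.88 higher with αKG at 3 and 6 h. The cationic amino acid carrier gene Slc7a1 was lower with αKG at 12, 24, 48 and 72 h.

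The tRNA synthetases were mostly higher with αKG at the first times and lower at 24 and 48 h. At 3 and 6 h, 6 of the 7 measured genes were higher with αKG, Wars being the other one, and at 12 h 5 of 7 were. At 24 h, 1 of 7 was higher, at 48 h all 7 were lower, by 0.02 to 0.49, and at 72 h 5 of 7 were higher. Tars was at 8.87 and 8.81 at 0 h and at 8.59 and 8.73 with αKG at 0.5 and 1 h, and was chosen as an example after its values were seen. With DW, Tars was at 8.85, 8.71, 8.20, 9.04, 9.37 and 7.85 from 3 to 72 h. With αKG, Tars was at 8.89, 8.92, 8.30, 8.85, 9.17 and 8.17. Both arms had a low at 12 h, a high at 48 h and their lowest value at 72 h. limma called 0 of the 7 synthetases in each comparison of αKG with DW, and the number with an unadjusted p under 0.05 was 2 early, 0 at the intermediate times and 1 late. Sars had the smallest early p, with an effect of 0.40 ± 0.14 (adjusted p = 0.451, limma).

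Over time in the DW arm, the listed genes went both ways up to 24 h, stood mostly higher than at 0 h at 48 h, and mostly lower at 72 h. Their medians against 0 h were between -0.23 and -0.01 up to 24 h, while single genes at 12 h lay between -1.46 and 1.10. At 48 h, 30 of 33 genes (90.9%) were above their 0 h mean, against 52.4% of all genes, with a median of 0.47; the exceptions were Atf3, Cebpb and Slc3a2. Between 48 and 72 h, 26 of 33 genes (78.8%) were lower at the later time, against 51.5% of all genes, with a median step of -0.74. The highest of the 6 DW times was 48 h for 21 of 33 genes (63.6%), against 15.8% of all genes. In the αKG arm the highest time was 3 h for 8 genes, 6 h for 9, 12 h for 5 and 48 h for 9. At 48 h, 24 of 33 genes were above 0 h with αKG (72.7%, against 52.4% of all genes; median 0.13), and from 48 to 72 h 23 of 33 were lower (69.7%, against 51.9%; median step -0.42). The range over the 6 times was wider with DW for 27 of 33 genes (81.8%, against 63.8% of all genes). The mean level of 9 cycling cell markers was 9.06 in the DW array at 48 h and 7.07 at 72 h, and 9.07 and 8.58 with αKG. The osteoclast marker mean went from 9.52 to 11.08 with DW and from 7.89 to 9.26 with αKG. The part of these markers in the steps from 48 to 72 h was not tested.

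**Figure D4:**
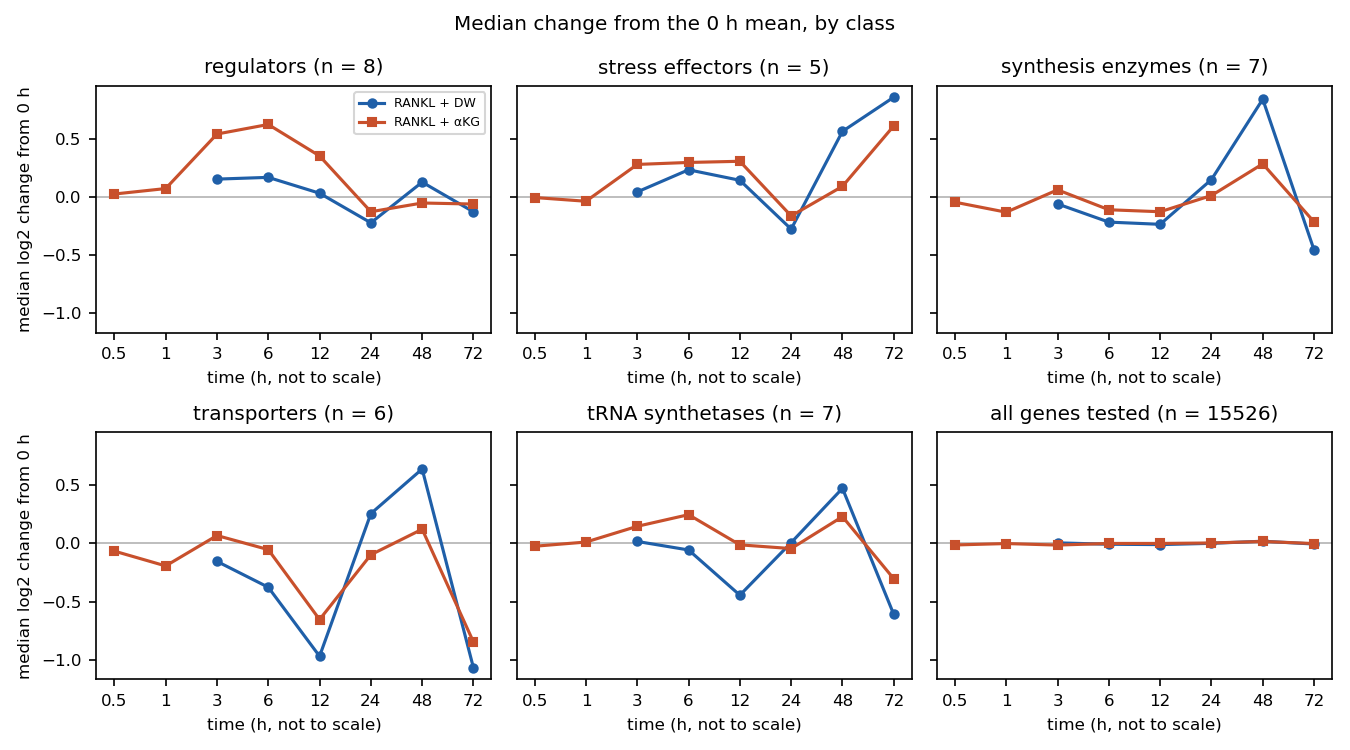
Each panel gives the median log2 change from the mean of the 0 h arrays (vertical axis) over the measured genes of a class, or over all 15526 genes tested, against time in h (categories, not to scale), with DW in blue and αKG in red. The synthesis enzymes reach 0.84 with DW and 0.28 with αKG at 48 h, the transporters reach -0.97 and -0.65 at 12 h, and the median of all genes stays near 0.

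Against 0 h, the phase tests called few of these genes. In this model the 2 times of a phase served as its 2 arrays, so change between them counted as spread in every comparison. A count of 0 here therefore does not show that the genes were unchanged. Fitted from only the arrays compared, αKG early gave 9 listed genes that rose, and DW late gave 0 calls. Early and intermediate DW cultures gave 0 calls of 33 in limma, with 0.341% and 0.779% of all genes called, and 2 and 3 listed genes (6.06% and 9.09%) had an unadjusted p under 0.05, against 6.13% and 8.95% of all genes. Late DW cultures had 1 gene that rose (Eif4ebp1; 3.34% of all genes rose) and 1 that fell (Atf3; 3.3% of all genes fell), with 7 genes (21.2%) at an unadjusted p under 0.05, against 21.1% of all genes. With αKG, limma called 0 of 33 genes in the fast, early, intermediate and late groups, where 0%, 0.502%, 0.67% and 1.43% of all genes were called, and 1, 6, 1 and 4 listed genes had an unadjusted p under 0.05 (3.03%, 18.2%, 3.03% and 12.1%, against 3.48%, 8.04%, 9.42% and 11.8% of all genes). All 8 neutrophil markers fell against 0 h in the late groups of both arms (medians -2.65 with DW and -2.44 with αKG), and 8 and 6 of the 10 osteoclast markers rose; the part of these markers was not tested. The late DW group joins a high and a low array. Of the 33 genes, 30 were above 0 h at 48 h, and 23 were below it at 72 h. At 48 h, Asns (1.84), Chac1 (1.54), Cth (1.23) and Eif4ebp1 (1.08) were among the higher genes, and Atf3 (-1.91) was lower. At 72 h, Eif4ebp1 (1.32) and Vldlr (1.29) were higher, and Slc7a5 (-2.92), Psat1 (-1.99) and Mthfd2 (-1.49) were among the lower genes. Each of these values rests on 1 array at its time. When either 0 h array was left out, Eif4ebp1 was the only gene called.

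Over both arms, time from 3 to 72 h changed 20 of 33 listed genes, where 33.6% of all genes changed. In this test the DW and αKG arrays served as the 2 arrays of each time, so arm differences that varied with time counted as spread. These were 5 of 8 regulators, 2 of 5 stress effectors, 4 of 7 synthesis enzymes, 5 of 6 transporters and 4 of 7 synthetases. The span between the highest and the lowest time, averaged over the arms, was 2.78 for Slc7a5, 2.01 for Slc7a1, 1.86 for Mthfd2 and 1.06 for Slc3a2 (adjusted p = 0.00196, 0.00112, 0.00649 and 0.000101, limma). The median span was 1.51 for the transporters, 1.39 for the synthesis enzymes and 0.77 for the synthetases, against 0.46 over all genes tested.

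Against 6 and 24 h, 4 transporter and 2 synthetase genes were lower at 12 h. These 6 of 33 genes fell, where 7.58% of all genes fell, namely Slc7a1 (-1.48 ± 0.21), Slc7a5 (-1.05 ± 0.30), Slc1a5 (-0.91 ± 0.26), Slc3a2 (-0.73 ± 0.07), Tars (-0.63 ± 0.12) and Yars (-0.57 ± 0.16). The stress effector Sesn2 and 3 regulators were higher: 4 of 33 rose, where 7.58% of all genes rose, namely Sesn2 (0.97 ± 0.24), Atf5 (0.52 ± 0.12), Nupr1 (0.51 ± 0.11) and Cebpg (0.44 ± 0.11). Slc3a2 had the smallest adjusted p, 0.000348 in limma: it was at 10.93, 10.18 and 11.00 at 6, 12 and 24 h with DW and at 11.16, 10.42 and 11.04 with αKG, so that both 12 h arrays lay below their neighbours. Other genes of these classes lay on the other side of 0: the regulators Atf4 (-0.41 ± 0.20) and Cebpb (-0.36 ± 0.13) had differences below 0 and the synthetase Nars (0.28 ± 0.12) one above 0, none of them called. Without the 24 h pair, which leaves 12 h against 6 h alone, only Slc3a2 was called, with an adjusted p of 0.00512 in limma. Without the 6 h pair the comparison is with 24 h alone. The call for Slc1a5 was kept in 5 of 12 alternatives, with values from -1.57 (against 24 h alone) to -0.25 (against 6 h alone). This call was lost also without the 3 or 48 h pair, with no filter, with the mean of its features and under both other moderations. Slc7a5 kept its call in 8 of 12 alternatives, losing it also without the 3 h pair and under both other moderations, and Yars in 9 of 12, losing it also without the 3 or the 6 h pair. This comparison was chosen with the place of the 12 h arrays already known.

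Related genes outside the list gave the following counts. Of 10 other ATF4 target genes, 1 rose early with αKG, where 0.161% of all genes were called. It was Slc7a11, the cystine importer gene, which is also a target of the oxidant-responsive factor NRF2. Slc7a11 was at 4.35 and 4.01 at 0 h and at 4.27 and 5.07 with αKG at 0.5 and 1 h. With DW, Slc7a11 was at 6.75, 5.64, 4.999, 4.53, 4.30 and 3.23 from 3 to 72 h. With αKG, Slc7a11 was at 9.23, 9.69, 8.07, 6.70, 4.81 and 4.18, above DW at 6 of 6 times, and it rose by 3.26 ± 0.33 early and 2.62 ± 0.33 at the intermediate times (adjusted p = 0.012 and 0.028, limma). The median early effect of the 10 genes was 0.15. Late, 1 of the 10 fell, where 2.18% of all genes fell. It was Jdp2, an AP-1 repressor gene, which fell by 1.08 ± 0.14 (adjusted p = 0.00526, limma). Jdp2 had risen by 3.77 ± 0.85 from 0 h to DW late.

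Another set of 7 genes held those for eIF2α kinases and phosphatase subunits, and Impact. In it limma called 0 early (1 had an unadjusted p under 0.05), and 1 rose late with αKG, where 2.09% of all genes rose. That gene was Eif2ak2, the double-stranded RNA sensor (0.46 ± 0.10, adjusted p = 0.036, limma). Impact was higher with αKG at 6 of 6 times, by 0.27 at 3 h and 0.74 at 6 h. From 0 h to DW late it fell by 1.04 ± 0.27 (adjusted p = 0.0446, limma). Ppp1r15a, the stress-induced phosphatase subunit that reverses eIF2α phosphorylation, was lower with αKG at 6 of 6 times, by 0.01 to 0.29. The 12 measured genes of the ATF6 and XBP1 branches of the unfolded protein response had 0 calls early, with 0 at an unadjusted p under 0.05 and a median effect of 0.04. In DW late cultures 3 of the 12 fell against 0 h, Hsp90b1, Sdf2l1 and Pdia6, where 3.3% of all genes fell, and the median was -0.59. The 10 other cytosolic synthetases had a median early αKG effect of 0.04 and the 16 mitochondrial ones of -0.07, beside 0.25 for the 7 listed synthetases. limma called 0 genes in each of these sets, and 1, 1 and 2 had an unadjusted p under 0.05. At 12 h, 5 of the 10 other cytosolic synthetases fell, where 7.58% of all genes fell. Rars did so the most clearly (-0.60 ± 0.10, adjusted p = 0.00315, limma).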

How the data were processed

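Total RNA was labelled with biotin using a whole-transcript terminal labelling kit and read on 16 1-colour arrays, per the labels' protocols. The values are log2 expression per feature as the authors deposited them; base 2 was inferred from their range (0.61 to 13.25), and array medians lay between 4.84 and 4.93. How features were summarised, background-corrected and normalized, and on which build, is not given in the sources used here. Probe detection could not be assessed, and precision is limited by the number of arrays.

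A single gene symbol was given for 23521 of 33793 features and several for 1814, and 8458 are unnamed here. For each of 22180 genes the feature with the highest mean was kept. Leaving out the lowest 30% by mean (up to 4.34) kept 15526 genes. limma 3.58.1 in R 4.3.3 (lmFit, eBayes with an intensity trend) compared RANKL phases with 0 h in a single model of the 8 groups, with 8 residual degrees of freedom. For αKG against DW, the model used the 12 arrays of the 6 shared times with time as a block, and 1 effect (5 residual degrees of freedom) or 1 per phase (3). The tests of time and of 12 h used the same 12 arrays with additive terms for time and arm, so each time had 1 array of each treatment. Pairing by time comes from the labels: deviations from arm means correlated at r = 0.5 to 0.75 between arrays of 1 time, and every array's best match was the other array of its time. The code was tested on simulated data. Alternatives were quantile normalization, centring, other filters, the mean of a gene's features, other moderation, fits of only the groups compared, no time block, and leaving out each array or time pair.

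The genes, classes, other gene lists and tests were chosen with earlier results of these data known. Values in every array are given for genes called in a comparison of αKG with DW or of a late group with 0 h, and always for Atf4, Atf3, Ddit3, Trib3, Asns, Chac1 and Slc7a5; others so shown (Mthfd2, Slc38a2, Tars, Slc7a11) were chosen after their values were seen. Slc6a9 and Aars lie only on features with several symbols. Promoter windows come from RefSeq (GRCm38.p6), and 29 of 36 genes matched. Python 3.11.15 with pandas 2.3.3 was used for tables and the motif search.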

Additional observations from a re-analysis of the deposited data

Results flagged for a closer look

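The effect of αKG on Eif4ebp1 differed between phases: it was 0.33 ± 0.10 early and -0.63 ± 0.10 late, and the late effect minus the early effect was -0.97 ± 0.14 (adjusted p = 0.034, limma contrast over all genes tested). Eif4ebp1 was higher with αKG at 4 of 4 times up to 24 h and lower at 48 and 72 h. No explanation was tested.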

How the results depend on the processing

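With each phase fitted against 0 h from only the arrays compared, the counts of listed genes called were 2 for DW early, 0 for DW late, 1 for the fast αKG group and 9 for αKG early. Moderation without an intensity trend gave 0 for αKG against DW over the 6 times, 1 late and 0 for late minus early. Without the time block these 3 counts were 0, 0 and 0. Robust moderation gave 1 for αKG against DW early. Leaving out 1 array or pair at a time gave 1 to 10 genes for DW late, 0 to 1 over the 6 times, 0 to 5 early, 1 to 7 late, 0 to 6 for late minus early, 17 to 23 for time and 1 to 13 for 12 h. The 12 h comparison gives no value without the 12 h pair, and without the 6 or the 24 h pair it has 1 neighbouring time. Many late effects had opposite signs in the 48 and 72 h pairs; Shmt2 was the gene called in both directions: its late αKG effect was -0.492 with 72 h left out and 0.714 with 48 h left out, and its late minus early effect was -0.715 and 0.491. A fit that leaves out 1 late pair has 1 array per arm in that phase and takes its spread from the other pairs. Counts of genes above or below 0 at single times, recomputed under scaling, filter and feature choices that were chosen after seeing the data, stayed within 1.5 times of those reported. The median of all genes moved by less than 0.1 under both scalings. No cause of these shifts was tested. Fits of only the arrays compared hold fewer arrays and take no spread from the other groups. One array per arm and time limits every statement about a single time.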
